A study of Mus musculus with 36 samples.

Results

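The genes described here encode the proteins of the cytosolic ribosome in EML4-ALK lung tumours of the mouse. They were chosen as protein-coding genes whose symbol starts with Rpl or Rps and a digit, together with Rplp0, Rplp1, Rplp2 and Rpsa. Ribosomal S6 kinases, Rps19bp1 and pseudogenes were left out. The rule found 85 genes among the 49585 gene IDs of the count table, 52 named for the large subunit and 33 for the small subunit. Fau, which encodes a ribosomal protein fused to a ubiquitin-like protein, and Rack1, a protein of the small subunit, do not carry such names and are not among them.

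RNA was sequenced from EGFP-positive neoplastic cells sorted from 36 tumours driven by variant 1 or variant 3 of EML4-ALK, a fusion oncogene with the kinase part of ALK. Tumours of each variant received sgNeo, the control guide, or sgSetd2, a guide against the histone H3 lysine 36 methyltransferase Setd2. Each of the 4 groups (Variant 1 sgNeo, Variant 1 sgSetd2, Variant 3 sgNeo, Variant 3 sgSetd2) holds 9 tumours under 3 title codes, with 3 tumours per code. The labels give neither the meaning of a code nor the strain, the age, the source of Cas9 or the way the fusion was made. Codes were taken as the replicates in the main fit, so that each of its p-values rests on how codes of a group differ, which may be technical.

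Ribosomal proteins are made in near-equal amounts and are built onto ribosomal RNA in the nucleolus before the subunits leave the nucleus. Many of their mRNAs begin with a run of pyrimidines, the 5′ terminal oligopyrimidine (TOP) motif, through which mTORC1 and Larp1 control their translation. MYC promotes transcription of ribosome genes, and unassembled Rpl5 and Rpl11 bind Mdm2 and stabilise p53.

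Start regions were read from RefSeq windows (build GRCm38.p6), of which 65 of the 85 genes had one. A run of at least 6 C or T that began with C within 5 bases of the annotated start was present in 27 of the 65, or 41.5%, against 11.9% of all 27025 genes with a window. The windows below, 20 bases before the start and 20 from it, are shown because they set genes with such a run (capitals) beside 2 genes without one. The first 4 are from genes that fell with sgSetd2, and the others from genes that did not pass the test described further down.
Rps18 (chr17:33955646-33955685, minus strand): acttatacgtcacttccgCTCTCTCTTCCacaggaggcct
Rpl15 (chr14:18270967-18271006, minus strand): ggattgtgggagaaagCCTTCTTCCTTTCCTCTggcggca
Rpl12 (chr2:32961692-32961731, plus strand): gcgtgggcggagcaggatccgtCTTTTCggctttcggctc
Rps26 (chr10:128626487-128626526, minus strand): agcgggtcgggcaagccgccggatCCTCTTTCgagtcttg
Rps6 (chr4:86857348-86857387, minus strand): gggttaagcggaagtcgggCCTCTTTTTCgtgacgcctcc
Rpl38 (chr11:114668560-114668599, plus strand): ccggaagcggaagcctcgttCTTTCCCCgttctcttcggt
Rpl36al (chr12:69184048-69184087, minus strand): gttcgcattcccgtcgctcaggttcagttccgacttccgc
Rpl7l1 (chr17:46782637-46782676, minus strand): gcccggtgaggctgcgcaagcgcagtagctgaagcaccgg

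In Rps6 the run crosses the annotated start, whereas in Rps26 it begins 4 bases after it. Within 50 bases of the start, CTTTCC on the coding strand was found in 32.3% of the members with a window against 5.43% of all such genes, and CTCTTTC in 18.5% against 1.62%. CCGGAAG on either strand, which holds the core bound by ETS factors, was present in 40% against 9.93%, and AAGATGGC on either strand in 9.23% against 3.19%. CTTTCC can lie within the pyrimidine run, so these counts overlap. TATAAA in the 40 bases before the start was found in 1 of the 65 members (1.54%), against 2.78% of all genes with a window. Among the 24 genes that fell with sgSetd2, 19 had a window and 9 of these had the run at the start. A match describes the letters only.

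Each tumour had between 17.9 M and 137 M counts. Type 2 pneumocyte markers summed to between 29350 and 218471 CPM (read counts brought to a common library size, with TMM scaling), with Sftpc, which encodes surfactant protein C, the highest. Summed leukocyte and macrophage markers lay between 4.37 and 72.5 CPM and lymphocyte markers at no more than 1.30 CPM. Club and ciliated cell markers moved with the guide: their sum ran from 17.0 to 212 CPM in Variant 1 sgNeo and from 165 to 846 CPM in Variant 1 sgSetd2, and from 10.5 to 27.1 against 50.03 to 352 CPM in Variant 3. Neutrophil markers summed to between 0 and 4.16 CPM in Variant 3 sgNeo and between 4.12 and 26.4 CPM in Variant 3 sgSetd2, where Cxcr2, a chemokine receptor, made up most of the sum, while S100a9 and Csf3r had 4 and 1 counts over all 36 tumours. Cxcr2 rose in the contrast averaged over both variants (log2 fold change 2.41, adjusted p = 0.0116 by edgeR). The median sum of fibroblast markers was 5.49 and 24.04 CPM in Variant 1 sgNeo and sgSetd2, and 8.98 and 43.4 CPM in Variant 3, with overlapping ranges. Napsa, an aspartic protease of type 2 pneumocytes, fell (-1.29, adjusted p = 0.0022). It was the only 1 of 9 type 2 markers called (3.63% of all genes fell). Of the 9, 5 had a log2 fold change above 0 and 4 below, with a median of 0.16. Leukocyte and macrophage markers and the fibroblast marker Col1a1 enter alternative fits further down. The part of the other markers in the results below was not tested. Setd2 itself had a log2 fold change of -0.56 with an SE of 0.15 (adjusted p = 0.0501) over both variants, with -0.86 (adjusted p = 0.082) in Variant 1 and -0.26 (adjusted p = 0.65) in Variant 3. It stood at 67.7 ± 13 and 37.4 ± 2.5 CPM in Variant 1 sgNeo and sgSetd2, and at 54.6 ± 10 and 45.7 ± 13 CPM in Variant 3 (SD, n = 3 codes each).

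The ribosomal protein genes together took up about 1 in 100 counts, and the group means were lower with sgSetd2 in both variants. Their share of all counts was 1.37% ± 0.19 in Variant 1 sgNeo and 0.985% ± 0.10 in Variant 1 sgSetd2 (SD, n = 3 codes each). In Variant 3 it was 1.54% ± 0.21 with sgNeo and 1.16% ± 0.18 with sgSetd2 (n = 3 codes each). In Variant 1 the sgNeo codes stood at 1.47% in CE467, 1.499% in CE468 and 1.15% in CE472, and the sgSetd2 codes at 0.970% in CE475, 1.09% in CE479 and 0.891% in CE483. No sgSetd2 code reached a sgNeo code in this variant. In Variant 3, CE428 stood at 1.78%, CE429 at 1.36% and CE433 at 1.47% with sgNeo, while sgSetd2 stood at 1.09% in CE450, 1.02% in CE454 and 1.37% in CE456. Here CE456 lay just above CE429, so that the groups overlapped. The share itself was not tested. Fewer cells of a type and less RNA per cell cannot be told apart in such bulk samples.

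**Figure D1:**
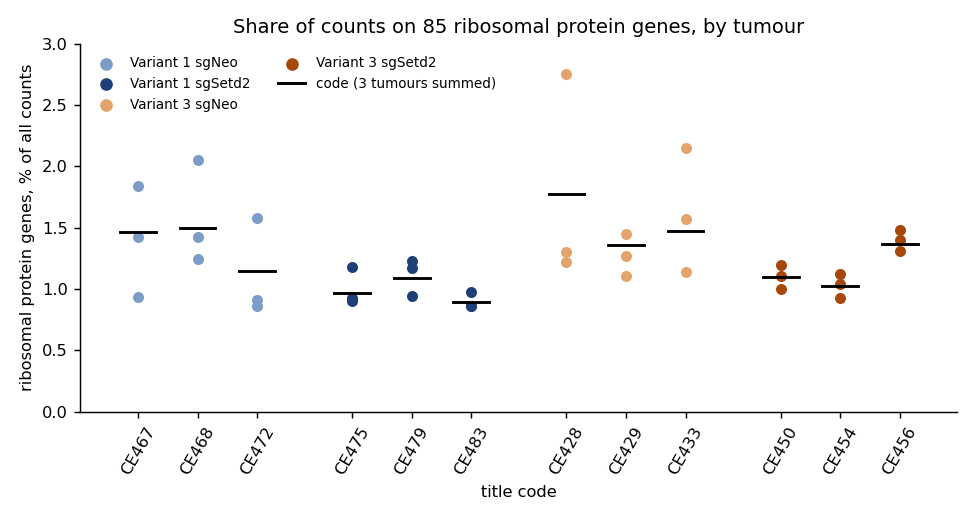
The vertical axis gives the percent of all counts on the 85 ribosomal protein genes, each point is 1 tumour, and each bar is a code with its 3 tumours summed. The sgNeo tumours run up to 2.05% in Variant 1 and 2.76% in Variant 3, and the sgSetd2 tumours to 1.23% and 1.48%.

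Single tumours overlapped between guides. The 9 Variant 1 sgNeo tumours ran from 0.864% through a median of 1.42% to 2.05%, and the sgSetd2 tumours from 0.861% through 0.939% to 1.23%. In Variant 3 the sgNeo tumours ran from 1.10% through 1.30% to 2.76%, and the sgSetd2 tumours from 0.924% through 1.12% to 1.48%. The lowest tumours were thus alike under both guides in Variant 1, and the high values above 1.5% were all in sgNeo tumours. Within CE472, a Variant 1 sgNeo code, tumour 2 stood at 1.58% while tumours 4 and 6 stood at 0.914% and 0.864%. The ratio of large-subunit to small-subunit counts was 1.50 ± 0.060 and 1.53 ± 0.032 in Variant 1 sgNeo and sgSetd2, and 1.49 ± 0.063 and 1.55 ± 0.0064 in Variant 3 (SD, n = 3 codes each), a difference below the sgNeo spread.

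Levels between genes were compared per kilobase of the longest transcript, as CPM. Rpl37a was highest at 511 CPM per kilobase, followed by Rpl13 at 482, Rps27l at 404, Rpl41 at 395 and Rpl10 at 364. Rpl37a and Rpl41 are small proteins of the large subunit, and Rpl10 joins the large subunit late in its assembly. The order depended on the length used: per kilobase of coding sequence, Rpl41 led with 1665 CPM and Rpl37a followed with 1033. At the low end stood Rpl3l at 0.14 CPM per kilobase, Rpl24 at 2.17, Rpl13a at 6.83, Rps15a at 17.99 and Rps20 at 26.4. Before division by length, Rps15a and Rps20 stood at 93.2 and 97.9 CPM. Their low place thus reflects long annotated transcripts and not low counts. Rpl24 and Rpl13a encode core proteins of the large subunit, and their values of 1.47 and 7.15 CPM lay far below the median member at 133 CPM. Of the listed pseudogenes, 0 are named for Rpl24 and 1 for Rpl13a. How reads shared with any copies of the 2 genes were counted is not given in the sources used here.

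**Figure D2:**
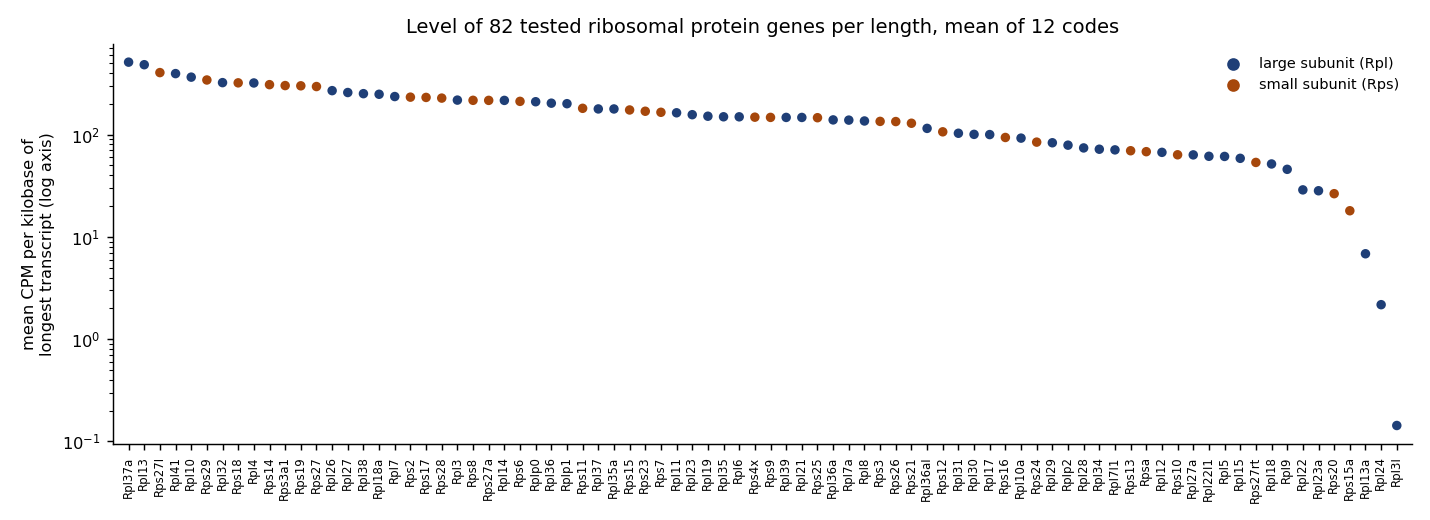
Each point is 1 tested gene, with 1 of the 83 not shown, and the vertical log axis gives the mean CPM of the 12 codes per kilobase of the longest transcript, in blue for the large and brown for the small subunit. Most genes lie within one order of magnitude, and Rpl3l, Rpl24 and Rpl13a lie below the rest.

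Paralogues differed in level. Rpl10l and Rpl39l, copies known from the male germline, had 0 counts in all 36 tumours, for which a count of 0 allows up to 3 counts in all, and were not tested. Rpl3l, the muscle form of Rpl3, had 323 counts over the 36 tumours. Rpl36al, the autosomal retrocopy of X-linked Rpl36a, made up 66.7% ± 2.0 of the pair's CPM in Variant 1 sgNeo and 70.9% ± 0.50 in Variant 1 sgSetd2. In Variant 3 it made up 66.6% ± 0.68 and 70.9% ± 1.3 (SD, n = 3 codes each). The sgSetd2 codes, at 69.6% or more, lay above the sgNeo codes, at 68.0% or less, in both variants. The share of this pair was not tested.

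Rpl3l made up between 0.0603% and 0.195% of the pair with Rpl3 in the Variant 1 sgNeo codes and between 0.0033% and 0.0576% with sgSetd2, and 0.0565% to 0.124% against 0.0037% to 0.0372% in Variant 3, so that these groups did not overlap either. The pairs of Rps27, Rpl22 and Rpl7 overlapped between guides. Rps27l, a p53-responsive form of Rps27, made up 67.0% ± 3.0 and 62.3% ± 2.1 of its pair in Variant 1 sgNeo and sgSetd2, and 61.5% ± 4.7 and 61.5% ± 6.3 in Variant 3 (SD, n = 3 codes each). Rpl22l1 held between 30.2% and 46.1% of the pair with Rpl22 over the 12 codes, and Rpl7l1 between 30.3% and 46.3% of the pair with Rpl7. Rps27rt, an intronless copy of Rps27, held between 10.9% and 14.7%. The genes of a pair are similar in sequence, so reads could be split between them, and the same holds for the 280 listed ribosomal protein pseudogenes.

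The members with sgSetd2 were then compared with sgNeo over all 6 sgSetd2 and 6 sgNeo codes, averaging both variants. Of the 83 tested genes, 24 fell and 0 rose at an adjusted p under 0.05 (edgeR's quasi-likelihood test, Benjamini-Hochberg over 20009 genes). Of all genes tested, 3.63% fell and 3.72% rose. All 83 log2 fold changes were below 0, with a median of -0.34 against 0.01 for all genes. An unadjusted p under 0.05 with a lower level was reached by 60 members and by 11.1% of all genes. The 24 were 13 large-subunit and 11 small-subunit genes, with log2 fold changes from -0.79 to -0.31 and adjusted p from 0.0091 to 0.0464. The medians of the subunits were -0.33 and -0.35.

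These counts moved with the fit. DESeq2 called 48 members lower on the code sums (4.5% of all genes) and 52 on single tumours (4.91%). At the level of tumours, edgeR called 51 (8.37%) and limma voom with codes as blocks 28 (5.55%), while limma on mean log2-CPM per code called 13 (3.49%). Leaving out tumour 2 of CE472 left 1 of 83 members, where 4.3% of all genes were called in either direction, and leaving out tumour 6 of that code gave 48, where 8.4% were called. The sum of 3 tumours per code weights deep libraries, and tumour 6 was the deepest of CE472 at 77.1 M.

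**Figure D3:**
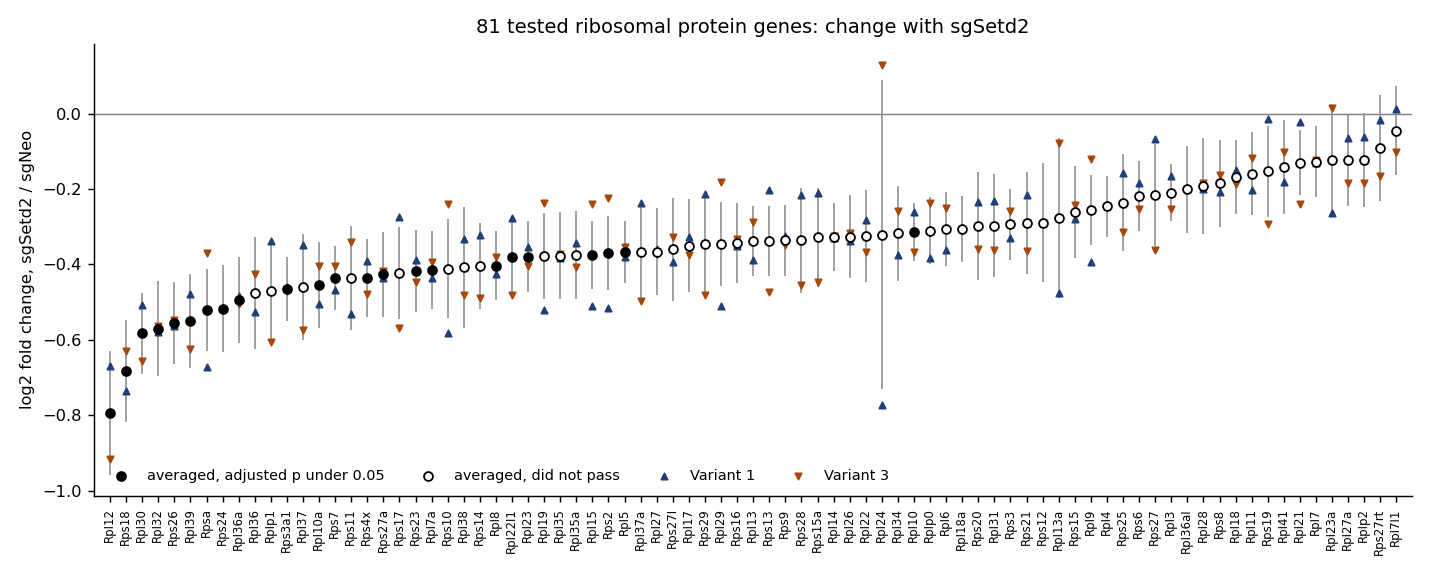
The vertical axis gives the log2 fold change of sgSetd2 against sgNeo for the tested genes except Rpl3l (-2.29) and 1 that is not shown, with bars of 1 SE on the average over variants, filled circles for genes with an adjusted p under 0.05, and triangles for each variant alone. All averages plotted lie below 0, from -0.79 in Rpl12 to -0.05 in Rpl7l1.

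Rpl12, a large-subunit protein at the base of the stalk that binds elongation factors, showed the largest called change. It lies at chr2:32961559-32965345 (GRCm38). The Variant 1 sgNeo codes stood at 85.3, 115 and 74.0 CPM and the sgSetd2 codes at 51.2, 71.1 and 50.1 CPM. In Variant 3, sgNeo stood at 158, 95.3 and 107 CPM and sgSetd2 at 57.2, 57.2 and 76.7 CPM. The groups did not overlap in either variant, and the log2 fold change was -0.79 with an SE of 0.17 (adjusted p = 0.016). Over single tumours they did overlap, with 46.7 to 204 CPM against 46.2 to 84.9 CPM in Variant 1.

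Rps18, of the head of the small subunit, lies at chr17:33951999-33956001. Its Variant 1 codes stood at 218, 240 and 163 CPM with sgNeo and at 123, 145 and 105 CPM with sgSetd2. In Variant 3 they stood at 291, 199 and 216 against 147, 140 and 169 CPM. Again no code overlapped, and the log2 fold change was -0.68 with an SE of 0.13 (adjusted p = 0.013).

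Rpl30, a large-subunit protein at chr15:34440505-34443640, stood at 98.9 ± 8.9 and 69.5 ± 6.5 CPM in Variant 1 sgNeo and sgSetd2, and at 115 ± 21 and 72.8 ± 10 CPM in Variant 3 (SD, n = 3 codes each). Its log2 fold change was -0.58 with an SE of 0.11 (adjusted p = 0.0097). It passed in each of the 48 fits that left out 1 code or 1 tumour, with adjusted p from 0.0045 to 0.0436. Rps3a1, near the exit of the mRNA channel, had the smallest adjusted p of the members, 0.0091, with a log2 fold change of -0.47. Its sgNeo codes spread little in Variant 1, at 325, 321 and 311 CPM, against 224, 237 and 235 CPM with sgSetd2.

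Further small-subunit genes that fell included Rps26 (log2 fold change -0.56), Rpsa (-0.52), Rps24 (-0.52), Rps7 (-0.44), Rps4x (-0.44), Rps27a (-0.43), Rps23 (-0.42) and Rps2 (-0.37). Rps26, Rps24 and Rps7 are among the genes mutated in Diamond-Blackfan anaemia, Rpsa is also known as the laminin receptor, and Rps27a is made as a fusion with ubiquitin. Rpsa stood at 158 ± 25 and 99.1 ± 13 CPM in Variant 1 and at 152 ± 12 and 118 ± 15 CPM in Variant 3 (SD, n = 3 codes each, sgNeo first). Its log2 fold change was -0.67 in Variant 1 and -0.37 in Variant 3, a difference that did not pass (interaction 0.30).

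Large-subunit genes that fell were Rpl32 (log2 fold change -0.57), Rpl39 (-0.55), Rpl36a (-0.49), Rpl10a (-0.45), Rpl7a (-0.41), Rpl8 (-0.40), Rpl23 (-0.38), Rpl22l1 (-0.38), Rpl15 (-0.37), Rpl5 (-0.37) and Rpl10 (-0.31). Rpl8 and Rpl10 lie by the peptidyl transferase centre, and Rpl39 lines the exit tunnel. Rpl39, Rpl36a, Rpl10 and Rps4x are on the X chromosome, so all 4 X-linked members fell, 2 of them without an overlap of codes in both variants. Of all genes, 3.63% fell, and the share among X-linked genes was not counted. No pattern of that chromosome is read from these 4. Codes with the Y-linked gene Ddx3y above 50 CPM were taken as male. These were CE429 and CE433 with sgNeo, both of Variant 3, and CE450 and CE475 with sgSetd2, of Variant 3 and Variant 1. Sex was thus balanced between guides over both variants, but not between single groups. With the sex of the code in the fit 19 members passed, all 19 of them among the 24. The share of all genes called in that fit is not given here.

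Of Rpl5 and Rpl11, the pair that binds 5S rRNA and Mdm2, Rpl5 passed the test and Rpl11 did not. Rpl5 fell by 0.37 on the log2 scale with an SE of 0.08 (adjusted p = 0.024), and its codes stood at 150, 133 and 122 against 102, 106 and 103 CPM in Variant 1. Rpl11 had a log2 fold change of -0.16 with an SE of 0.11 (adjusted p = 0.43), with 142, 144 and 106 against 111, 117 and 112 CPM in Variant 1, where the groups overlapped. The difference between these genes was not tested. Of the stalk proteins, none passed: Rplp0 had a log2 fold change of -0.31 (adjusted p = 0.057), Rplp1 -0.47 (0.051) and Rplp2 -0.12 (0.63). Rps6, the protein phosphorylated by S6 kinase, had -0.22 (adjusted p = 0.19).

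The members nearest to 0, at a mean of at least 5 CPM, were Rpl7l1 (-0.05), Rps27rt (-0.09), Rplp2 (-0.12), Rpl27a (-0.12), Rpl23a (-0.12) and Rpl7 (-0.13). Rpl7l1, whose relative Rpl7 is a core protein, stood at 187 ± 20 and 189 ± 20 CPM in Variant 1 and at 188 ± 32 and 175 ± 33 CPM in Variant 3 (SD, n = 3 codes each, sgNeo first). Among paralogues, Rpl36al had -0.20 (adjusted p = 0.33) where Rpl36a fell, and Rpl22 had -0.32 (0.13) where Rpl22l1 fell. Rps27 had -0.22 (adjusted p = 0.38), Rps27l -0.36 (0.14), Rpl3 -0.21 (0.12) and Rpl3l -2.29 (0.12).

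Within each variant alone, edgeR called 0 members. In Variant 1, where 0.72% of all genes were called lower, 39 members had an unadjusted p under 0.05, all lower (8.31% of all genes), and the median log2 fold change was -0.34. Without tumour 2 of CE472 these became 9 members and -0.24, and the counts were 25, 22 and 22 without CE467, CE468 or CE483. For fits with a code or tumour left out, here and in Variant 3 below, the share of all genes at that p was not counted. These counts therefore do not show whether the members stood apart from all genes. Lower calls numbered 12 with DESeq2 on sums (2.63% of all genes), 9 with DESeq2 on tumours (2.02%), 6 with edgeR on tumours (2.15%), 1 with limma voom (0.742%) and 0 with limma on code means (0.429%). In Variant 3, where 0.615% of all genes were called lower, 40 members had an unadjusted p under 0.05, all lower (6.77% of all genes), with a median of -0.36. Without tumour 2 of CE428, the tumour with the highest share of counts on the members, these became 16 members and -0.18, and without all of CE428 14 members and -0.22. Without CE454, tumour 1 of CE433 or tumour 2 of CE472 the count was 25, 19 or 24. The same tools gave 14 (2% of all genes), 18 (2.65%), 12 (3.78%), 2 (2.56%) and 0 (1.19%) lower calls.

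By the codes themselves, 41 of 83 members lay below sgNeo with no overlap in Variant 1 (12.3% of all genes) and 41 in Variant 3 (8.96% of all genes). No member lay above without overlap in Variant 1 (11.7% of all genes) or Variant 3 (10%). In both variants at once this held for 25 members (3.38% of all genes), and 16 of these were among the 24 that passed on average. The other 9 were Rpl3, Rpl3l, Rpl4, Rpl13, Rpl14, Rplp0, Rps3, Rps9 and Rps14. The interaction of guide and variant called 0 members and 0% of all genes by edgeR, with 0 members at an unadjusted p under 0.05, 0 by either DESeq2 fit, by edgeR on tumours and by both limma fits, and a median of -0.01.

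Between variants, the members had positive median differences and edgeR called none of them. With sgNeo, 0 members passed (0.005% of all genes), 9 had an unadjusted p under 0.05, all higher (4.06% of all genes), and the median log2 difference was 0.22 against -0.02 for all genes. This median rested largely on single libraries: it was 0.040 without tumour 2 of CE428, with 0 members at an unadjusted p under 0.05 and 29 below 0, 0.076 without all of CE428, 0.11 without CE472 and 0.12 without tumour 6 of CE472. DESeq2, edgeR on the tumours and both limma fits also called 0. There were 9 members above Variant 1 with no overlap of codes (6.83% of all genes), among them Rpl37a (0.52 with an SE of 0.17, adjusted p = 0.38) and Rpl22l1 (0.44 with an SE of 0.14, adjusted p = 0.37). Rpl37a stood at 289, 298 and 208 CPM in Variant 1 and at 483, 335 and 323 CPM in Variant 3. With sgSetd2, 0 members passed by edgeR (0.13% of all genes) and 4 had an unadjusted p under 0.05, all higher (4.51% of all genes). DESeq2 on tumours called 2 higher (1.2% of all genes) and edgeR on tumours 1 (1.23%), while 29 members lay higher with no overlap (8.62% of all genes) and the median was 0.19. That median was 0.061 with the cell cycle list as a covariate, 0.093 with the mitochondrial share and 0.10 with leukocyte and macrophage markers.

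Short, abundant mRNAs other than the members were set beside them, since such mRNAs share length and level. Among protein-coding genes with a longest transcript of at most 1000 bases and a mean of at least 50 CPM, 15 of 43 members (34.9%) and 14 of 185 other genes (7.57%) fell with sgSetd2 on average. The medians were -0.40 and -0.03. Members with longer transcripts had a median of -0.31 and the other genes of that kind 0.06. Between variants in sgNeo, by contrast, the short abundant members and the other genes had medians of 0.22 and 0.21. Selection by level and length used no contrast.

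The members varied together from tumour to tumour. Over the 36 tumours, the log2-CPM of a member and the mean of the other members had a median Pearson r of 0.89, and 67 of the 83 were above 0.8. The highest was Rps24 at 0.97 and the lowest Rpl7l1 at 0.26. The median over all other genes with the members' mean was -0.01, and 0.447% of them exceeded 0.8. The points share library, depth and scaling, and tumours of a code are not independent. The genes outside the members with the most similar pattern were Rack1 (r = 0.94), Gm2000 (0.93), Ndufa12 (0.93), Usmg5 (0.92), Gm14303 (0.92), Gm6436 (0.92), Ndufa5 (0.91), Rpl36-ps2 (0.91), Gm9794 (0.90) and Gm14586 (0.90). Rack1 is a ribosomal protein by structure, Ndufa12 and Ndufa5 belong to respiratory complex I, Usmg5 to the ATP synthase, and Gm14303, Gm6436, Rpl36-ps2, Gm9794 and Gm14586 are annotated as processed pseudogenes.

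By code sums, cell cycle genes were lower with sgSetd2 mainly in Variant 1, and the members' medians were -0.34 in Variant 1 and -0.36 in Variant 3. The 26 tested genes of the list had a mean log2-CPM of 4.53 ± 0.030 in Variant 1 sgNeo and 2.89 ± 0.33 in Variant 1 sgSetd2, and of 3.96 ± 0.57 and 3.66 ± 0.63 in Variant 3 (SD, n = 3 codes each). In the averaged contrast 6 of the 26 fell and 0 rose (3.63% and 3.72% of all genes), and the list's median log2 fold change was -0.97. Aurkb (-1.58), Ube2c (-1.42), Cdk1 (-1.35), Ccna2 (-1.28), Bub1 (-1.11) and Kif23 (-1.001), genes of mitosis, were those that fell. In Variant 1 the list's median was -1.57, with 25 genes lower at an unadjusted p under 0.05 by edgeR (8.31% of all genes). In Variant 3 it was -0.29, with 0 genes lower at that level (6.77% of all genes). The list's interaction of guide and variant had a median of 1.37, and that of the members was -0.01. Tumour 2 of CE472 and tumour 2 of CE428 had the highest list means of their sgNeo groups, 5.47 and 5.15. Without the first, the members' median was -0.24 in Variant 1, and without the second it was -0.18 in Variant 3. The cause of these shifts was not tested. With the list's mean as a covariate, 0 members passed in the averaged contrast, 2 had an unadjusted p under 0.05, and the members' median was -0.18. That fit called 0.235% of all genes. The covariate took the median to -0.08 in Variant 1 and to -0.30 in Variant 3. Covariate and guide overlap in Variant 1, where they cannot be told apart.

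**Figure D4:**
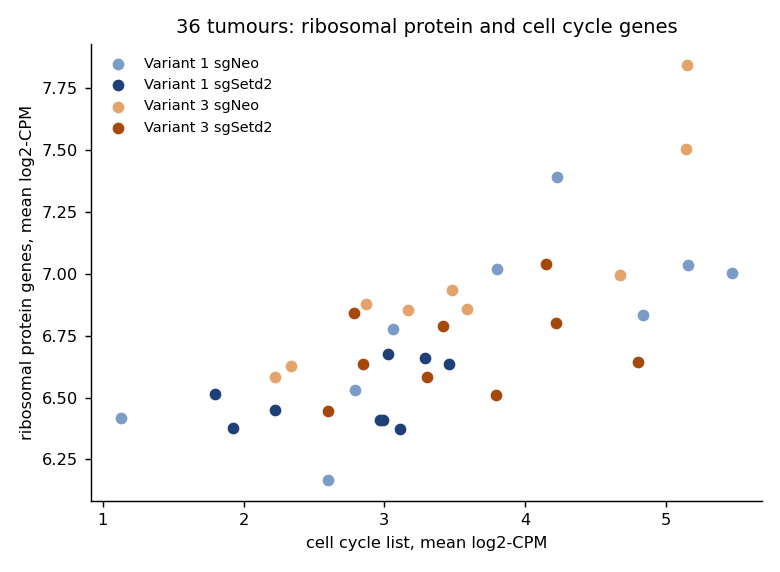
Each point is 1 tumour, with the mean log2-CPM of the cell cycle list on the horizontal axis and of the ribosomal protein genes on the vertical axis. The 2 Variant 3 sgNeo tumours at the top right are tumour 2 of CE428 (2.76% of counts on the members) and tumour 1 of CE433 (2.15%). Variant 1 sgSetd2 tumours all lie below 3.5 on the cell cycle axis, as do some Variant 1 sgNeo tumours, the lowest at 1.13.

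The share of counts from the mitochondrial genome also differed between tumours. It was 2.30% ± 0.82 and 1.51% ± 0.22 in Variant 1 sgNeo and sgSetd2, and 2.57% ± 0.18 and 2.53% ± 1.6 in Variant 3 (SD, n = 3 codes each). The 3 tumours of CE456, the sgSetd2 code highest in ribosomal protein genes, stood between 3.45% and 5.97%. With this share as a covariate 16 members fell, with a median of -0.27, where 7.43% of all genes were called in either direction. With the leukocyte and macrophage markers 15 fell, with a median of -0.29, where 5.73% of all genes were called, and the Variant 1 median became -0.18. Without the 4 tumours with Col1a1, a fibroblast collagen, above 10 CPM, 23 fell, and the share of all genes in that fit is not given here.

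Scaling sets the reference against which the members are read. With TMM factors taken from the members alone, their median became 0.02, that of all genes 0.36, and 1 member (Rpl12) passed. On that scale the split of all calls went from 745 higher and 726 lower to 2946 higher and 301 lower. With factors from all genes but the members, 28 members fell, where 7.42% of all genes were called in either direction. The change of the members is therefore one relative to the other genes of the same libraries.

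The genes around the ribosome were read in the averaged contrast from lists by role, where 3.63% of all genes fell and 3.72% rose. Where a list held 1 called gene, the call speaks for that gene and not for the list. Among 24 translation factors and binding proteins whose mRNAs also carry a TOP motif, 11 fell and 1 rose, with a median of -0.33. Pabpc1, the poly(A)-binding protein, fell by 0.57 on the log2 scale (adjusted p = 0.0020), from 195 ± 9.7 to 136 ± 13 CPM in Variant 1 and from 201 ± 9.4 to 131 ± 11 CPM in Variant 3 (SD, n = 3 codes each). It was also called in each variant alone (adjusted p = 0.0458 and 0.0212). Rack1 (-0.47), Eif4b (-0.42), Hnrnpa1 (-0.42), Btf3 (-0.41), Npm1 (-0.40), Eif3h (-0.36), Eef2 (-0.35), Eef1g (-0.35), Eef1d (-0.32) and Eif3e (-0.31) fell as well. Eif4a2, a helicase of translation initiation, rose by 0.55. Of 30 other initiation factors, 3 fell, Eif4e (-0.44), Eif3m (-0.43) and Eif4a1 (-0.37), and 0 rose, with a median of -0.08.

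Of 40 ribosome assembly factors, 7 fell and 2 rose, with a median of -0.26. Gar1 (-1.10) and Nop10 (-0.45) guide pseudouridylation, and Nop56 (-0.85) and Fbl (-0.67) guide methylation of ribosomal RNA. Rrs1 (-0.68), Wdr12 (-0.61) and Gnl3 (-0.40) act in large-subunit assembly. Las1l (1.01), a processing endonuclease, and Sbds (0.43), which releases an antiassociation factor from the large subunit, rose. Nop56 stood at 97.6 ± 19 and 50.6 ± 14 CPM in Variant 1 and at 81.4 ± 10 and 48.4 ± 5.7 CPM in Variant 3 (SD, n = 3 codes each, sgNeo first).

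Of 15 genes of the RNA polymerase I machinery, 1 fell, Polr1b (-0.50), and 0 rose. Of 26 genes of MYC and mTORC1 control, 1 fell and 0 rose, with a median of 0.01. Of all genes, 3.63% fell and 3.72% rose, so these 2 lists were not set apart by their counts. The gene that fell was Larp1 (-0.42, adjusted p = 0.014), the binding protein of TOP mRNAs. Myc itself had a log2 fold change of -1.38 with an SE of 0.43 (adjusted p = 0.076) and Mycn of -2.03 with an SE of 0.59 (adjusted p = 0.058). Myc stood at 47.5 ± 16 and 26.1 ± 23 CPM in Variant 1 and at 36.2 ± 3.7 and 9.72 ± 6.1 CPM in Variant 3 (SD, n = 3 codes each, sgNeo first), a spread near its difference in Variant 1.

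Of 8 genes of ribosome stress and p53, 1 fell (3.63% of all genes). This was Trp53 (-0.84 with an SE of 0.11, adjusted p = 0.0017), which was called in each variant (adjusted p = 0.0329 and 0.0213). It stood at 56.5 ± 5.4 and 32.3 ± 3.6 CPM in Variant 1 and at 58.3 ± 12 and 31.7 ± 1.1 CPM in Variant 3 (SD, n = 3 codes each, sgNeo first). Of 5 factors of dormant ribosomes, 1 fell (3.63% of all genes), the elongation factor kinase Eef2k (-1.12). Of 9 hosts of small nucleolar RNAs, 1 fell, which was Rack1 again.

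Other large complexes were read in the same way, again beside 3.63% of all genes that fell and 3.72% that rose. Of 77 mitochondrial ribosomal proteins, 7 fell and 0 rose with a median of -0.18, among them Mrpl13 (-0.62) and Mrpl11 (-0.45). Of 37 complex I subunits, 3 fell (Ndufa9, Ndufc2 and Ndufb8) with a median of -0.10. Of 31 proteasome subunits, 0 passed, with a median of -0.08. Of 124 tested ribosomal protein pseudogenes, 0 passed and the median was -0.24. They were counted at low level and may hold reads of their parents. The shares were set side by side and their differences were not tested.

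**Figure D5:**
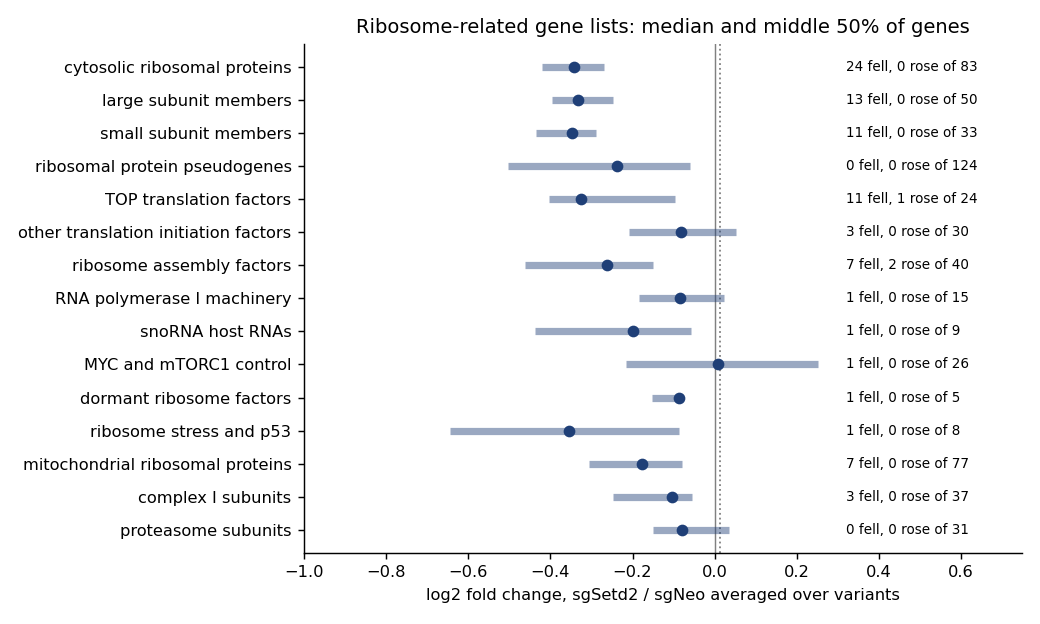
Each row is a gene list, the point is the median log2 fold change of sgSetd2 against sgNeo averaged over variants, the bar spans the middle 50% of its tested genes, and the counts of genes that passed stand at the right. The dotted line marks the median of all genes at 0.01, and the cytosolic ribosomal proteins lie at -0.34 with 24 of 83 fallen (3.63% of all genes).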

How the data were processed

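The authors deposited raw read counts per gene for 36 tumours. RNA was isolated with a PicoPure kit and libraries made with a SMART-Seq mRNA kit, per the labels' protocols. Reads were aligned with STAR 2.5.3a, per the submitters' processing notes, which also list R 4.2 and DESeq2 1.38.3. How reads were counted, whether by strand, and on which build and annotation is not given in the sources used here, so reads shared with pseudogenes may be split. Symbols and GRCm38 coordinates came from GENCODE release M21 for 49326 of 49585 IDs.

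For each code, counts were added over its 3 tumours. In R 4.3.3, edgeR 4.0.16 (filterByExpr, 20009 genes, TMM, glmQLFit and glmQLFTest) fitted all 12 codes, with Benjamini-Hochberg adjustment at 0.05. Each SE is the absolute log2 fold change over the root of F. The fit was also run on simulated counts, with changes planted in random genes for sgSetd2 against sgNeo in Variant 1 only. Those changes were larger than the members' median, so that run does not bear on changes of the members' size or on the averaged contrast. Genes named beyond their counts are members past the threshold, the 6 most and least changed with at least 5 CPM, the 5 most and least abundant, the stalk, Rps6, Rpl5, Rpl11, paralogue pairs and list members of smallest p. Alternatives used DESeq2 1.42.0 and limma 3.58.1. The mitochondrial covariate was added after seeing the data. Members and lists were chosen with earlier results of these data known. Some genes are not reported here.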

Additional observations from a re-analysis of the deposited data

Results flagged for a closer look

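Of 32 sets of 9 tumours examined (8 quantities in 4 groups), 6 held a tumour far from the other 8 by Dixon's ratio of gap to range. Chance gives about 1 in 20.

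Tumour 4 of CE468 (Variant 1 sgNeo) stood apart in 4 of them. It had 8.20% of its counts on the mitochondrial genome, with the next tumour of the group at 2.65%. Its Rpl30 stood at 189.8 CPM against 117 CPM in the next tumour, its Rpl12 at 204 against 108 CPM, and its Rps18 at 430 against 249 CPM. Without this tumour 26 members fell in the averaged contrast. Tumour 1 of CE468 had 72.5 CPM of leukocyte and macrophage markers, with the next tumour at 29.3 CPM. Tumour 4 of CE479 (Variant 1 sgSetd2) had 104 CPM of Rpl30, with the next at 73.3 CPM, and without it 33 members fell. Over the 36 fits that left out 1 tumour, between 846 and 1681 of all genes were called in the averaged contrast, in either direction.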

How the results depend on the processing

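No paired analysis was possible because no title code occurs in more than 1 group. In the averaged sgSetd2 contrast, 24 members fell as reported. The count was 48 with DESeq2 on sums, and 52 with DESeq2 and 51 with edgeR on tumours, which both ignored the codes. It was 13 with limma on code means, 15 with the leukocyte covariate, 0 with the cell cycle covariate and 1 with TMM on the members alone. Leaving out 1 code or tumour gave 1 to 48: 9 without CE428, 14 without CE433, 9 without CE450, 7 without CE454, 10 without CE467, 8 without CE468, 5 without CE475, 7 without CE483, and 13, 11, 1 and 48 without CE429 tumour 2, CE433 tumour 1, CE472 tumour 2 and CE472 tumour 6. In these 12 fits between 3.38% (without CE475) and 8.4% (without CE472 tumour 6) of all genes were called in either direction, so the count over all genes moved too. The median stayed between -0.40 and -0.27 in the 48 fits. It ran from -0.44 to -0.24 in Variant 1 and from -0.44 to -0.18 in Variant 3, and from 0.040 to 0.32 (sgNeo) and 0.13 to 0.24 (sgSetd2) between variants. The cause of these shifts was not tested. In Variant 1 the count was 1 of 81 tested members under the stricter filter, where 4.87% of all genes were called in either direction. It was 12 and 9 by DESeq2, 6 by edgeR on the tumours, 1 by limma voom and 0 to 6 with a code or tumour left out. In Variant 3 the count was 1 of 81 tested members under the stricter filter, where 4.34% of all genes were called in either direction. It was 14 and 18 by DESeq2, 12 by edgeR on the tumours, 2 by limma voom, 1 with sex, 3 with leukocyte markers, 2 with the mitochondrial share, 1 without Col1a1-high tumours and 0 to 1 with a code or tumour left out. For the covariate and Col1a1 fits in Variant 3 the share of all genes called is not given here. Variant 3 against Variant 1 with sgSetd2 gave 2 by DESeq2 and 1 by edgeR on the tumours.

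TMM on the members alone centres them by construction. It gave medians of 0.0072, 0.014 and 0.016 for sgSetd2 in Variant 1, in Variant 3 and on average, and of -0.0034 and -0.0031 between variants. The cell cycle covariate gave medians of -0.077 in Variant 1 and -0.24 in the interaction, where the leukocyte covariate also gave -0.24. Between variants in sgNeo the median was 0.33 with sex and 0.33 with leukocyte markers. On the members' own scale, values turned above 0 for Rpl10 (0.033), Rpl11 (0.20), Rpl22 (0.033), Rpl23a (0.22), Rpl27a (0.23), Rpl3 (0.14), Rpl36al (0.15), Rpl7 (0.22), Rpl7l1 (0.31), Rplp0 (0.042), Rplp2 (0.24), Rps27 (0.16), Rps27rt (0.28) and Rps6 (0.13). With the cell cycle covariate this held for Rpl23a (0.17), Rpl27a (0.025), Rpl36al (0.10), Rpl7 (0.0080), Rpl7l1 (0.086) and Rps27rt (0.11), with the mitochondrial share for Rpl23a (0.011), and with limma voom for Rps27rt (0.0054). Leaving out a code or tumour gave -0.10 to 0.029 for Rpl7l1 and -0.17 to 0.037 for Rps27rt.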
